A study of Homo sapiens with 36 samples.

Results

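The loci described here surround the 5 genes whose subunits were depleted in HEK293T cells: CHD3, CHD4, CHD5, MBD2 and MBD3. Their members were all CTCF peaks overlapping 1 of 5 hg19 windows. The windows were chromosome 17 from 7590000 to 8020000 for CHD3, chromosome 12 from 6480000 to 6920000 for CHD4, chromosome 1 from 5960000 to 6440000 for CHD5, chromosome 18 from 51480000 to 51950000 for MBD2 and chromosome 19 from 1380000 to 1800000 for MBD3. They held 357 of 179333 peaks over 6 lists, which joined into 111 of 54382 merged regions (overlapping or touching peaks of any list counted as 1 region). The CHD3 window held 30 regions, the CHD4 window 39, the CHD5 window 18, the MBD2 window 6 and the MBD3 window 18.

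HEK293T is an established line from human embryonic kidney, and CTCF occupancy was read in it by ChIP-seq (immunoprecipitation of sheared chromatin followed by sequencing). The transfected small interfering RNA was directed against CHD3 (siCHD3), CHD4 (siCHD4), CHD5 (siCHD5), MBD2 (siMBD2) or MBD3 (siMBD3), or was the control si-NC (siNC here). The labels describe the transfection as a co-transfection and name no other agent or any time after it. Each of the 6 conditions had 3 immunoprecipitates and 3 inputs, which makes 36 samples in 12 groups. For each condition 1 peak list pooled the 3 immunoprecipitates, so no value below has a spread between replicates and no test between conditions was made. Exact Clopper-Pearson 95% intervals cover counting error only. Whether each subunit fell was not analysed here, and all samples came from 1 cell line.

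NuRD joins a nucleosome-remodelling ATPase to histone deacetylases. CHD3, CHD4 and CHD5 are alternative ATPases of the complex, CHD4 being the broadly expressed one and CHD5 being known chiefly from the nervous system and testis and as a tumour suppressor. MBD2 and MBD3 are alternative methyl-CpG-binding-domain subunits, of which MBD2 binds methylated DNA and mammalian MBD3 does so weakly or not at all. CTCF is a zinc-finger protein that occupies insulators, loop anchors and many promoters. Each gene here is therefore both the target of 1 condition and a stretch of chromatin measured in all 6.

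The upstream sequences of MBD2 and MBD3 are shown because they held short words from the centre of the CTCF motif, while no control peak lay in the part of either window laid out around the gene. RefSeq promoters (build GRCh38.p14) were matched for 4 of the 5 genes, CHD5 being unmatched. The 250 bases before the annotated start are printed 5′ to 3′ on the gene's own strand, which is the minus strand for both, with the motif words in capitals.
MBD2 promoter: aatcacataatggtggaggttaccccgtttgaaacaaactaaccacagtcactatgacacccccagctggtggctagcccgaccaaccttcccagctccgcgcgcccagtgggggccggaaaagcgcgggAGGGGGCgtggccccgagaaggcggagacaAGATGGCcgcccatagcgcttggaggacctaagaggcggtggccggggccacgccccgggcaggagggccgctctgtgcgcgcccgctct
MBD3 promoter: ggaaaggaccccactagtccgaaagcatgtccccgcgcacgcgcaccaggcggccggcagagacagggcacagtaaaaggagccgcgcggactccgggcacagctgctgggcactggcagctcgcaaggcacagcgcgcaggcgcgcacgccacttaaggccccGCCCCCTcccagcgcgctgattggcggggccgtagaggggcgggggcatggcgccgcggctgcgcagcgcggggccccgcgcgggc
MBD2 held AGGGGGC starting at position -120 and AGATGGC at -90, and MBD3 held GCCCCCT, the other strand of AGGGGGC, at -86, all counted from the start. On either strand, AGGGGGC was found in 13.3% of 35116 RefSeq promoters of the same length. The other words searched in the same way were AGGTGGC (in 5.51%), then AGAGGGC (in 7.35%), and lastly AGATGGC (in 3.34%). No match shown overlaps another, and 26.4% of promoters held at least 1 of the words. The CHD3 and CHD4 sequences held none of them. GC content was 58.8% for CHD3, 72% for CHD4, 66.4% for MBD2 and 74.8% for MBD3, against a median of 58.0% over all promoters. MBD3 held 32 CpG dinucleotides, MBD2 and CHD4 21 each and CHD3 9, against a median of 11. A word match is a description of the letters and not a binding site, and because the peaks are on another build they were not placed on these sequences.

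The 5 neighbourhoods differed in how densely CTCF was called. In siNC cells the CHD3 window held 20 peaks (4.65 per 100 kb), the CHD4 window 20 (4.55), the CHD5 window 15 (3.13), the MBD3 window 9 (2.14) and the MBD2 window 5 (1.06). The CHD3 and CHD4 windows thus had more than 4 times the peak density of the MBD2 window. In the RefSeq annotation of GRCh38.p14, 17 protein-coding genes lay within 200 kb of CHD3, 20 of CHD4, 16 of MBD3, 8 of CHD5 and 3 of MBD2. The CHD4 neighbours include GAPDH, a glycolytic enzyme, and CD4, a T-cell co-receptor. Those of MBD3 include TCF3, a basic helix-loop-helix transcription factor, and RPS15, a ribosomal protein. Those of CHD3 include KDM6B, a histone H3 lysine 27 demethylase. MBD2 has POLI, a translesion DNA polymerase, STARD6, a lipid-transfer-domain protein, and C18orf54.

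Depth differed between lists and bears on every comparison below. The lowest local background in a list, taken as its genome-wide fragment coverage, was highest for siNC at 2.96, followed by siCHD5 at 1.95 and siCHD4 at 1.06, and lower for siMBD2 at 0.640, siCHD3 at 0.445 and siMBD3 at 0.374. The lists held 25358 to 36270 peaks. In the 5 windows together, siNC had 69 peaks, siCHD3 85, siCHD4 53, siCHD5 50, siMBD2 49 and siMBD3 51, so siCHD3 alone had more peaks than siNC there, although its whole list was shorter (34319 against 36270). Fold enrichment (a peak's summit over local background) is the authors' value and is used only to describe or rank peaks within a list, as a percentile among that list's peaks.

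**Figure D1:**
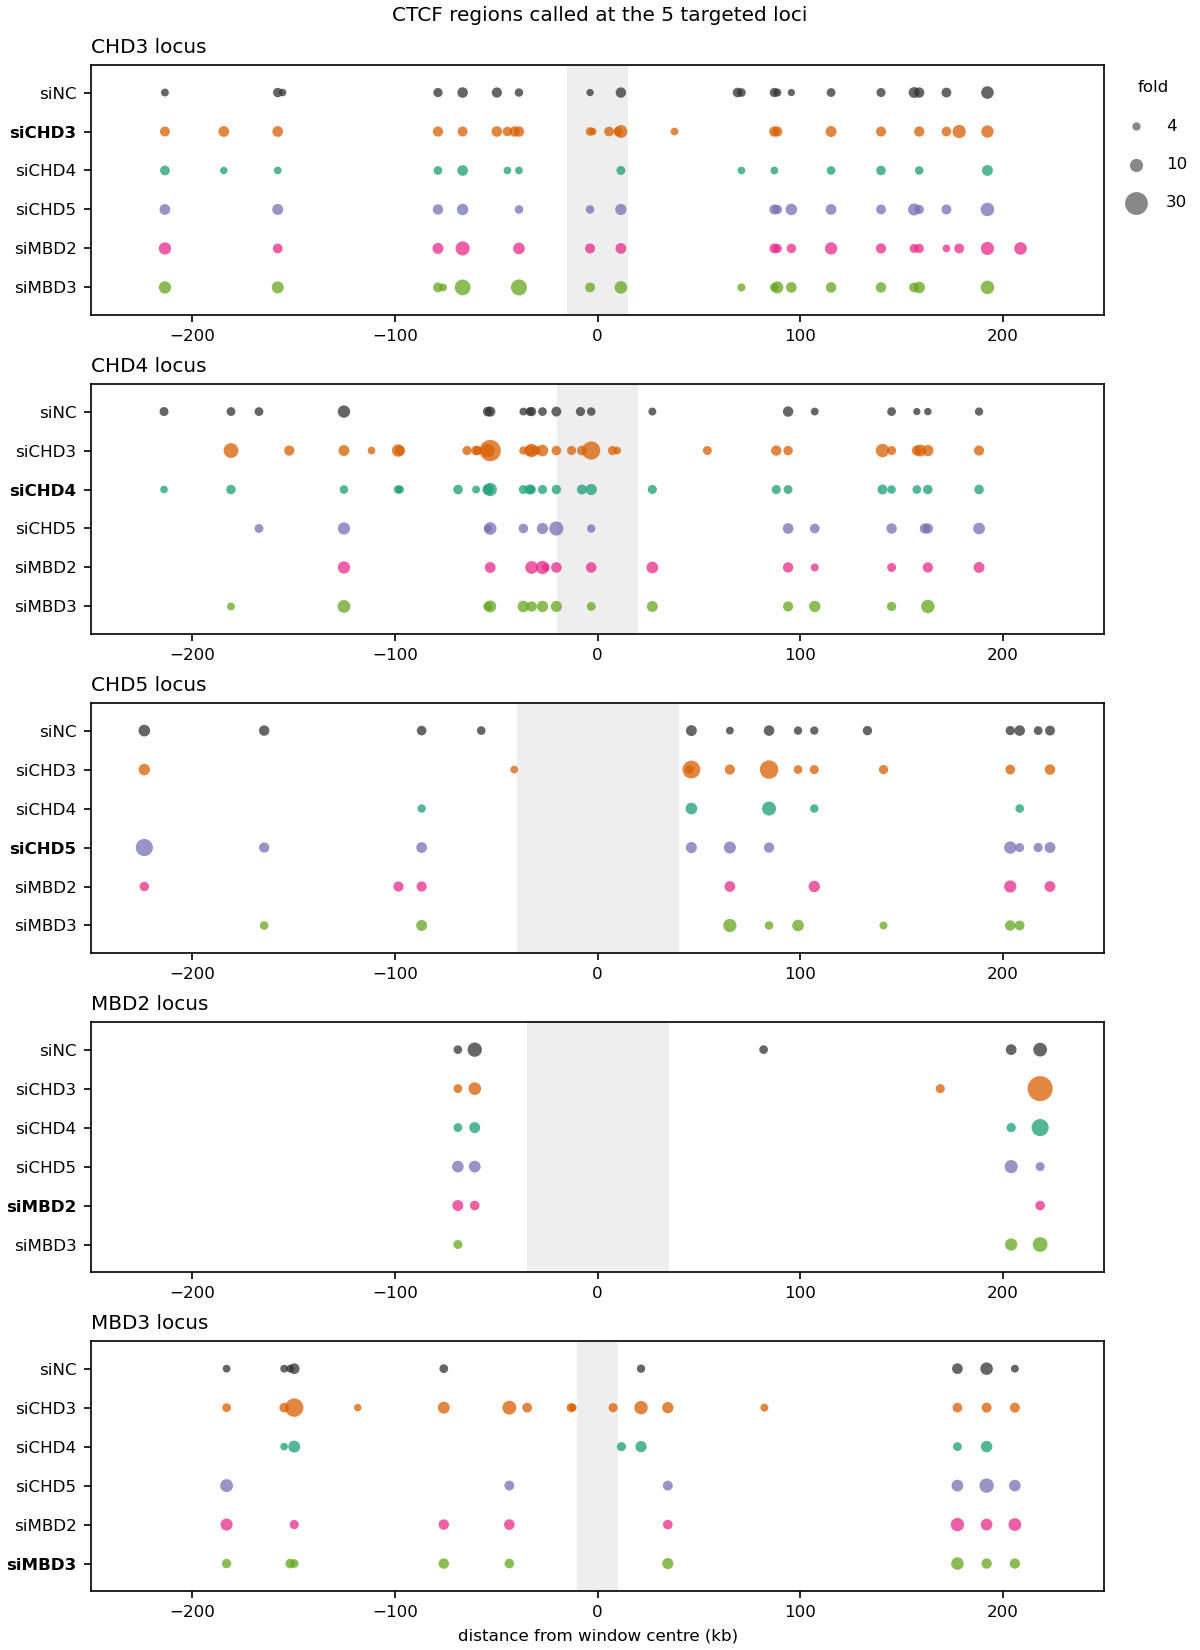
CTCF regions in the 5 windows, plotted by distance from the window centre (kb) in rows of 1 list each; point area grows with the authors' fold, the grey band is the middle of each window, and the list of the gene's own knockdown is in bold. No point lies in the grey band of the CHD5 and MBD2 windows in any list, and siCHD3 has 16 points in the MBD3 window against 9 in siNC.

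The windows reach 200 kb to each side of a middle stretch of 30 kb for CHD3, 40 kb for CHD4, 80 kb for CHD5, 70 kb for MBD2 and 20 kb for MBD3. RefSeq gives the genes lengths of 28.0, 37.3, 78.5, 73.1 and 19.3 kb in the same order, and the placement of each gene in its middle was not checked on hg19. By these lengths MBD2, at 73.1 kb, is longer than its 70 kb middle and cannot lie wholly within it. The middles of the CHD5 and MBD2 windows held no CTCF region in any of the 6 lists. Around the MBD2 middle no list had a region between 51654547 and 51796793, a gap of 142 kb, and around the CHD5 middle none had one between 6158949 and 6245281, a gap of 86.3 kb. Both were the widest gaps between neighbouring regions of their windows. The MBD2 window also held no region in its first 166 kb, from its start to the region at 51645824, a longer stretch than that gap. The MBD3 middle held 1 region, at 1597498 to 1597802, called in siCHD3 alone with a fold of 4.85. CTCF calls within the gene-sized stretches therefore came mainly from CHD3 and CHD4.

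The CHD3 middle held 5 regions, of which the one at 7816302 to 7816654 was called in all 6 lists. Its fold was 6.22 in the control; siCHD3 had 9.66, siCHD4 4.61, siCHD5 7.27, siMBD2 6.72 and siMBD3 9.13. Within the gene's own knockdown it stood at the 86.1 percentile and in siNC at the 70.9 percentile, so it was not among the weaker peaks of either list. A region at 7801143 to 7801396 was called in every list but siCHD4, with folds of 3.08 in siNC, 4.28 in siCHD3, 4.24 in siCHD5, 5.82 in siMBD2 and 5.62 in siMBD3. Those starting at 7802440, 7810458 and 7814889 were called in siCHD3 alone, with folds of 3.31, 5.44 and 4.76 and summit pileups of 4, 7 and 6 fragments.

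The CHD4 middle held 6 regions, and 1 of them, at 6696545 to 6697122, was called in all 6 lists. Its fold was 4.18 in the control, while siCHD3 had 19.1, siCHD4 7.27, siCHD5 4.05, siMBD2 6.51 and siMBD3 4.56. It ranked at the 96.3 percentile in siCHD3 and the 86.1 percentile in siCHD4, but at 24.5 in siNC, 47.8 in siMBD2, 12.8 in siMBD3 and 9.0 in siCHD5. The summit pileup was 34 fragments in siCHD3 and 24 in siNC. In siCHD4 it was 18, in siCHD5 and siMBD2 16 each and in siMBD3 9. A strong siCHD3 and siCHD4 call thus sat within the gene-sized stretch of CHD4, with weak calls in siNC, siCHD5 and siMBD3. Close by, a peak at 6691381 to 6691690 (fold 4.85) was called in siNC alone, and 0.333 kb from it a region at 6692023 to 6692486 was called in siCHD3 (5.51) and siCHD4 (5.82) only. The other 3 regions, starting at 6686976, 6707133 and 6709527, were called in siCHD3 alone with folds of 4.76, 4.85 and 3.46. A region at 6679361 to 6679915, 0.085 kb outside the middle, was called in all 6 lists.

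The question the windows pose is whether CTCF calls around a gene are affected when that gene is the one depleted. Of siNC peaks around the depleted gene itself, 17 of 69 (24.6%, 95% interval 15.1 to 36.5%) had no peak in that knockdown's list, here called missing. In the 4 other knockdowns the same loci gave 98 of 276 (35.5%, 29.9 to 41.5%). The intervals overlap, and the 276 count each siNC peak 4 times against lists that share that control, so the peaks are not independent. By gene, the siNC peaks missing in the gene's own knockdown were 5 of 20 for CHD3 (25.0%, against 35.4% of all siNC peaks in siCHD3) and 3 of 20 for CHD4 (15.0%, against 41.5% in siCHD4). They were 5 of 15 for CHD5 (33.3%, against 21.5% in siCHD5), 2 of 5 for MBD2 (40.0%, against 34.9% in siMBD2) and 2 of 9 for MBD3 (22.2%, against 38.5% in siMBD3). In no locus did the interval of this share lie above the share over the whole list.

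CHD4 was the locus that kept most of its control peaks when it was the target. The interval of its 15.0% ran from 3.21 to 37.9%, below the share over the whole list, and the other 4 loci lost 23 of 49 siNC peaks in siCHD4 (46.9%, 32.5 to 61.7%). Among 25 pairs of locus and knockdown it was the only one whose interval missed the whole-list share; with so many pairs, and peaks of 1 locus not being replicates, this is a description. When a −log10 q of at least 10 was required in both lists, 9 of 15 siNC peaks (60%, 32.3 to 83.7%) had no siCHD4 partner in the CHD4 window, near the 59.4% of all siNC peaks under that rule.

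In the CHD5 locus the largest shares were lost outside its own knockdown. Of its 15 siNC peaks, 10 were missing in siCHD4 (66.7%, 38.4 to 88.2%), while siMBD2 lacked 9, siMBD3 8, siCHD3 6 and siCHD5 5. Each of these intervals held the whole-list share of its knockdown. In the CHD3 locus siCHD4 gave the most missing peaks, 8 of 20 (40.0%), near the 41.5% over the whole list, against 5 in siCHD3 and 4 in each of the others. In the MBD3 locus siCHD5 gave the most, 5 of 9 (55.6%), with an interval of 21.2 to 86.3% that held the 21.5% over the whole list. There were 4 missing in siCHD4, 3 in siMBD2, 2 in siMBD3 and 1 in siCHD3. The MBD2 locus, with 5 siNC peaks, gave 1 or 2 missing peaks in every knockdown, and no order can be read from such counts.

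**Figure D2:**
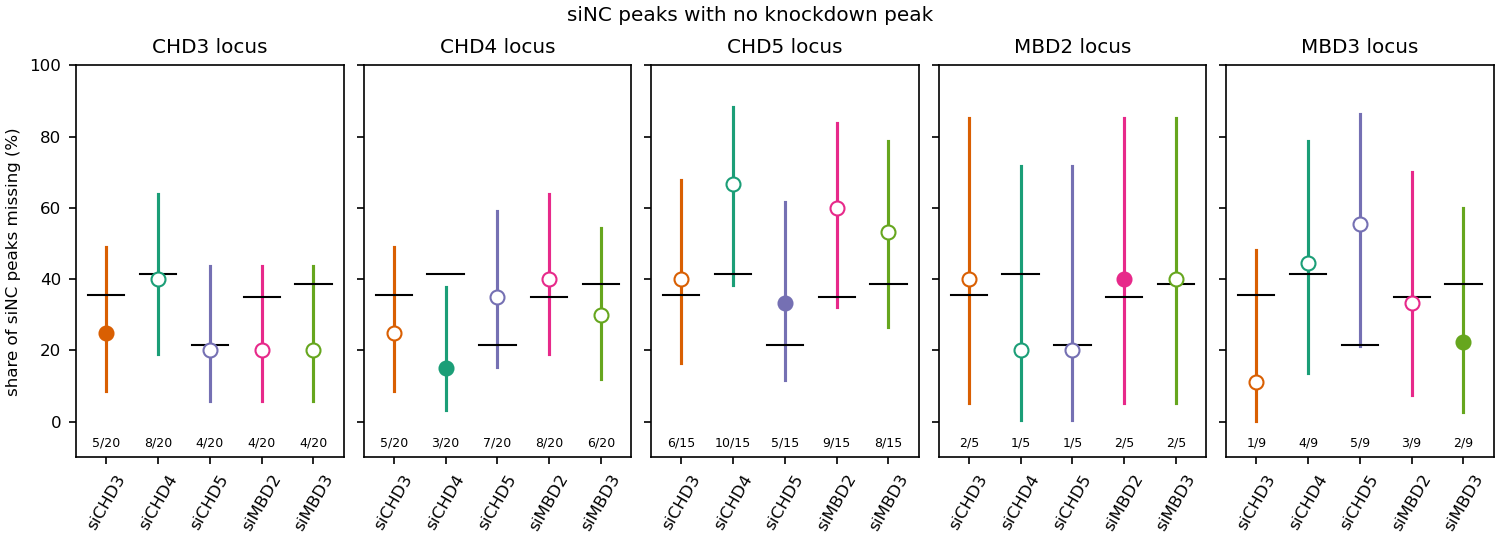
Share of siNC peaks with no overlapping peak in each knockdown list (%), by locus; bars are exact 95% intervals, filled points mark the gene's own knockdown, black ticks the share over the whole list, and the fractions below give the counts. The filled point of CHD4 (3 of 20) lies below its tick, and the other 24 intervals hold theirs.

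Over all 5 loci, siCHD3 lacked 19 of the 69 siNC peaks (27.5%, against 35.4% over the whole list). Both siCHD5 and siMBD3 lacked 22 (31.9%, against 21.5% and 38.5%), and both siCHD4 and siMBD2 lacked 26 (37.7%, against 41.5% and 34.9%). Each of these 5 intervals held its whole-list share, that of siCHD5 narrowly, with a lower limit of 21.2%. With windows less 100 kb at each end, siCHD5 lacked 15 of 37 siNC peaks (40.5%, 24.8 to 57.9%), above the 21.5%. With lists cut to equal length, siCHD3 lacked 5 of 37 (13.5%, 4.54 to 28.8%), below the 30.3% over the whole of those lists. The missing peaks had lower median pileups in siNC than those kept. For siCHD3 the median siNC pileup was 64.5 fragments among those kept and 28 among those missing. It was 63 against 46 for siCHD4, 70 against 25.5 for both siCHD5 and siMBD2, and 65 against 27 for siMBD3. The same direction held over the whole siNC list, with 76 against 38 for siCHD3 and 79 against 39 for siCHD4. There it was 72 against 25 for siCHD5, 79 against 31 for siMBD2 and 80 against 34 for siMBD3. Whether depth accounts for the missing peaks was not tested. Of the 69 siNC peaks, 23 were found in all 5 knockdown lists, 14 were missing from 1, 13 from 2, 7 from 3, 6 from 4 and 6 from all 5.

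The 17 peaks missing in a gene's own knockdown had a median siNC fold percentile of 28.8 (from 4.54 to 80.2), and 14 of them lay below the median of the siNC list. Around CHD3 they started at 7649382, 7873953, 7875771, 7900475 and 7961008. The last had a siNC fold of 6.84 (80.2 percentile) and a pileup of 120 fragments, and was also absent from siCHD4, while siCHD5 (8.39), siMBD2 (4.54) and siMBD3 (5.62) had it. Among the 5 it alone had a siNC pileup that, scaled to the siCHD3 background, would still have passed the weakest p in the siCHD3 list. Around CHD4 they started at 6532707 (fold 4.50, pileup 117), 6691381 (4.85, pileup 28) and 6807085 (3.53, pileup 54), and all 3 would have passed at siCHD4 depth. Around CHD5 they started at 6142445, 6284050, 6298784, 6306721 and 6333043, with folds from 3.99 to 5.05, and all 5 would have passed at siCHD5 depth. The one at 6284050 had a siCHD5 peak 0.595 kb away. Around MBD2 they started at 51796794 (fold 4.35) and 51918870 (6.68), of which the latter would have passed. Around MBD3 they started at 1435098 and 1611336 (folds 3.53 and 4.04), and neither would have passed.

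Of all 111 regions, 6 (5.41%) were called in siNC alone, near the 5.3% over all merged regions. They lay at 7649382 and 7873953 in the CHD3 window, 6691381 in the CHD4 window, 6142445 and 6333043 in the CHD5 window and 51796794 in the MBD2 window. Their siNC folds ran from 3.28 to 5.32, and being absent from all 5 knockdowns they count among the peaks missing in their own. No region was called in all 5 knockdown lists without siNC, a pattern that 0.0846% of all merged regions showed.

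Peaks with no control counterpart were most frequent in siCHD3, with the largest shares in the CHD4 and MBD3 windows. Of 85 siCHD3 peaks in the 5 windows, 36 (42.4%, 31.7 to 53.6%) had no overlapping siNC peak, here called added, against 32.6% over the whole siCHD3 list. The share was 10 of 53 (18.9%) in siCHD4 against 16.8% over its whole list, 3 of 50 (6%) in siCHD5 against 9.41%, 6 of 49 (12.2%) in siMBD2 against 9.3% and 4 of 51 (7.84%) in siMBD3 against 13.4%. With the full lists the interval of the share over the 5 windows held that of the whole list in all 5 knockdowns, but this depended on list length. With every list cut to the length of the shortest, added peaks made up 44.8% in siCHD3 (31.7 to 58.5%, against 30.5% over the whole of the shortened list) and 47.2% in siCHD4 (33.3 to 61.4%, against 30.5%). They then made up 33.3% for siMBD2 (20.4 to 48.4%, against 18.9%) and 40.8% for siMBD3 (27.0 to 55.8%, against 23.9%), so that 4 of the 5 intervals lay above their whole-list share. That cut kept 37 of the 69 siNC peaks in the windows, against 25358 of 36270 over the whole siNC list. The siCHD4 list, already the shortest, was not cut, so its added count went from 10 to 25 of 53 through siNC peaks left out. What part this has in the 4 intervals was not tested. With full lists and windows less 100 kb at each end, the siCHD3 interval also lay above the whole-list share (28 of 54, 51.9%, 37.8 to 65.7%, against 32.6%). Added siCHD3 peaks were weak, with a median pileup of 7 fragments against 17 for siCHD3 peaks shared with siNC, and 5 of the 36 reached a −log10 q of 10. The whole siCHD3 list was alike, with medians of 7 and 19 and 1264 of 11199 added peaks reaching that q. The siCHD3 list had the lowest background after siMBD3, and the part of depth in these calls was not tested.

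In the CHD4 window siCHD3 had 31 peaks, siCHD4 24, siNC 20, siCHD5 and siMBD3 14 each and siMBD2 13. Added peaks made up 16 of the 31 in siCHD3 (51.6%, 33.1 to 69.8%) and 7 of the 24 in siCHD4 (29.2%, 12.6 to 51.1%). There was 1 of 14 in siCHD5, 1 of 13 in siMBD2 and 0 of 14 in siMBD3, where a count of 0 allows up to 23.2%. Among the 25 pairs, the siCHD3 share in the CHD4 window was the only one whose interval did not hold the share over the whole list, lying above it by less than 1 percentage point. Of the 39 CHD4 regions, 10 were called in siCHD3 alone and 6 in siCHD3 and siCHD4 only. Over the 5 windows, 24 of 111 regions (21.6%, 14.4 to 30.4%) were called in siCHD3 alone, against 14.7% of all merged regions. A further 8 (7.21%, 3.16 to 13.7%) were called in siCHD3 and siCHD4 only, against 3.09%.

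The 3 strongest added peaks of CHD4 in its own knockdown were at 6692023 (fold 5.82, in the middle of the window), 6840422 (5.77) and 6631008 (5.34), with pileups of 11, 11 and 10 fragments. The region of the second, at 6840253 to 6840937, had a fold of 10.4 in siCHD3 and no call in siNC, siCHD5, siMBD2 or siMBD3. The 3 strongest of CHD3 in its own knockdown were at 7983314 (fold 10.2, pileup 15), 7620364 (6.72, pileup 11) and 7763897 (6.29, pileup 9). The first was also called in siMBD2 and the second in siCHD4. In all, 8 of 23 siCHD3 peaks around CHD3 were added (34.8%, 16.4 to 57.3%), near the share over the whole list. The CHD5 window gave 0 of 10 added peaks in its own knockdown (up to 30.8%) and the MBD2 window 0 of 3 (up to 70.8%).

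The MBD3 window held 2 regions that siNC lacked and 4 knockdowns shared. That at 1546249 to 1546597 had a fold of 11.2 in siCHD3, 5.66 in siCHD5, 6.48 in siMBD2 and 5.32 in siMBD3, and that at 1624454 to 1624820 a fold of 7.40, 5.66, 5.35 and 7.17 in the same lists. Neither was called in siNC or siCHD4. In siCHD5 their pileups of 55 and 51 fragments lay above the median of 50.5 for siCHD5 peaks in the 5 windows. Their local backgrounds there were 8.89 and 8.18, and their folds stood only at the 33.7 and 33.8 percentiles of the siCHD5 list. They made up both of the added peaks of MBD3 in its own knockdown (2 of 9, 22.2%, 2.81 to 60%, against 13.4% over the whole siMBD3 list). In siCHD3, 8 of the 16 peaks in this window were added (50.0%, 24.7 to 75.3%, against 32.6%), and both intervals held the share over the whole list.

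**Figure D3:**
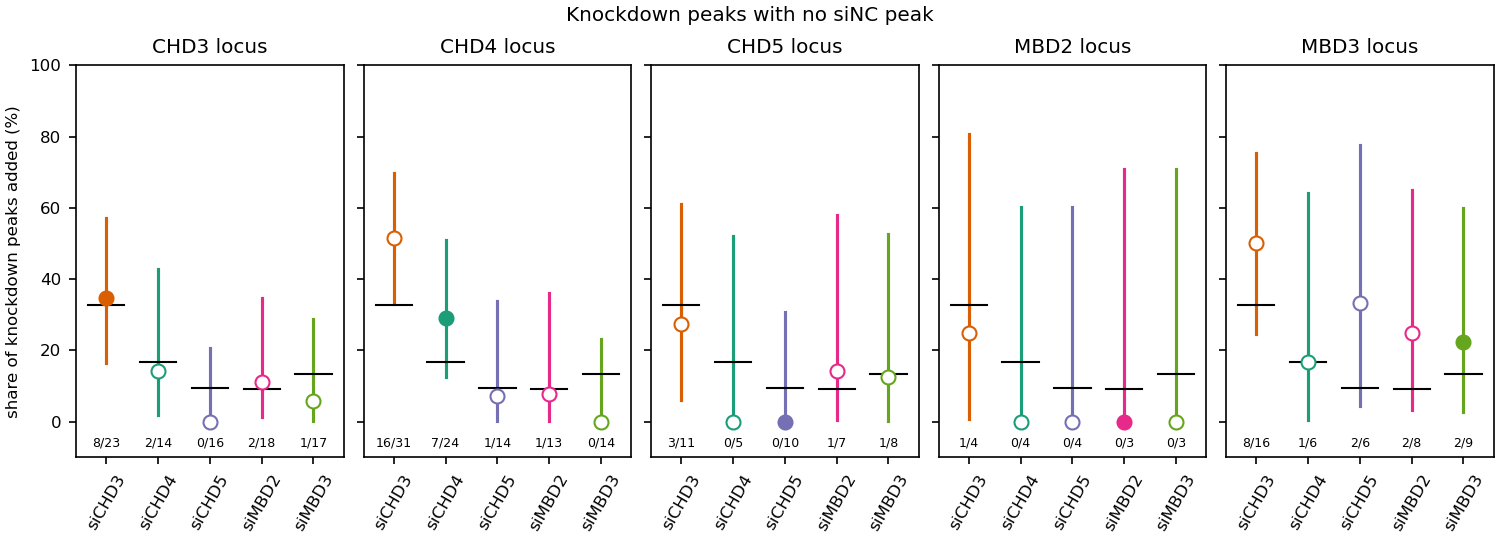
Share of each knockdown's peaks with no overlapping siNC peak (%), by locus; bars are exact 95% intervals, filled points mark the gene's own knockdown, black ticks the share over that knockdown's whole list, and the fractions below give the counts. In the CHD4 window siCHD3 (16 of 31) and siCHD4 (7 of 24) lie highest, and siMBD3 has 0 of 14.

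Calls shared by all 6 lists were unevenly spread. They made up 23 of the 111 regions (20.7%, 13.6 to 29.5%), near the 21.7% of all merged regions. The CHD3 window held 11 of them (of 30 regions), the CHD4 window 8 (of 39), the MBD2 window 2 (of 6), the MBD3 window 2 (of 18) and the CHD5 window 0 (of 18). For CHD5 the upper limit of the exact interval was 18.5%, and siCHD4, with 5 peaks there against 15 in siNC, had the fewest regions. Of the CHD5 regions, 4 were called in 5 lists: 2 of these lacked siCHD4, 1 siCHD3 and 1 siMBD2. Where all 6 lists had a region, its strongest summits lay close together: the largest distance between lists had a median of 25 bp, and 22 of the 23 stayed within 100 bp.

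The regions of highest siNC fold were chosen on siNC, so a lower percentile in another list is a description only. Within the MBD2 window the region at 51933234 to 51933562 had a fold of 10.9 in the control, while siCHD3 had 36.1, siCHD4 16.9, siCHD5 4.68, siMBD2 5.35 and siMBD3 12.6. It stood between the 97.6 and 98.5 percentiles in siNC, siCHD3, siCHD4 and siMBD3, but at 17.2 in siCHD5 and 24.1 in siMBD2. Its pileup was 60 fragments in siNC, 50 in siCHD4, 19 in siMBD2 and 17 in siCHD5. Local backgrounds there were 4.62, 2.02, 2.74 and 2.85 in the same order. As multiples of each list's lowest background, these pileups were 20.3, 47.1, 29.7 and 8.70, with 155 in siCHD3 and 64.2 in siMBD3. The low percentile in siMBD2 thus did not go with a lower scaled pileup than in siNC. The other strong region of that window, at 51654166 to 51654546, had folds of 11.7, 9.22, 6.96, 8.06 and 5.37 in siNC, siCHD3, siCHD4, siCHD5 and siMBD2, and was not called in siMBD3. It stood at the 99.0 percentile in siNC and at 24.6 in siMBD2. In siMBD2, the 3 peaks around MBD2 had folds of 5.35 to 6.88, and none reached a −log10 q of 10, against 4 of 5 in siNC. Over the whole lists, 55.3% of siMBD2 peaks and 78.6% of siNC peaks did. A region could also stand higher in some knockdowns and lower in others. That at 7738187 to 7738559 in the CHD3 window was at the 73.4 percentile in siNC and at 40.1 in siCHD3, its own knockdown. It was at 66.1 in siCHD5, 80.1 in siCHD4, 97.3 in siMBD2 and 98.6 in siMBD3. Its pileup was 27.0 times the lowest background in siNC and 29.2 times in siCHD3.

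Around CHD5 the region at 5976078 to 5976461 stood highest within the list of the gene's own knockdown, at the 99.4 percentile in siCHD5 (fold 16.9) against 89.8 in siNC (7.87), 69.3 in siCHD3 (7.52) and 20.1 in siMBD2 (5.12), and was not called in siCHD4 or siMBD3. At 6245763 to 6246787 the percentile was 96.1 in siCHD3, 89.7 in siCHD4, 80.3 in siNC and 57.7 in siCHD5, and siMBD2 and siMBD3 had no call. The region at 6283937 to 6285288 stood at 96.5 for siCHD3 and 95.7 for siCHD4, then 74.4 for siNC, 42.0 for siCHD5 and 8.27 for siMBD3, with no call in siMBD2. Those last regions spanned 1025 and 1352 bp when merged over lists. The widest single peak of the CHD5 window was 963 bp in siNC, 1344 bp in siCHD3 and 878 bp in siCHD4. It was 550 bp in siCHD5, 541 bp in siMBD3 and 493 bp in siMBD2. The median width of siNC peaks in the 5 windows was 299 bp.

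A percentile highest in siCHD3 and next highest in siCHD4 was also found at 6646469 to 6647524 in the CHD4 window, with 97.6 and 94.7 there, 83.1 for siCHD5, 76.9 for siMBD3, 67.9 for siNC and 53.5 for siMBD2. It was found again at 1440047 to 1440482 in the MBD3 window, with 96.4 and 90.9, then 76.4 for siNC, 15.0 for siMBD2, 9.07 for siMBD3 and no call in siCHD5. These regions were noticed for that pattern after their values were seen. By contrast, the strongest siNC region of the CHD3 window, at 7997186 to 7997597, stayed high in every list, with folds of 9.14 for siNC, 8.81 for siCHD3, 6.84 for siCHD4, 10.5 for siCHD5, 9.90 for siMBD2 and 10.5 for siMBD3, and percentiles from 81.5 to 95.5. In the MBD3 window the strongest siNC region, at 1781739 to 1782224, was called in all 6 lists, with folds of 9.06 for siNC, 5.80 for siCHD3, 7.60 for siCHD4, 11.9 for siCHD5, 7.92 for siMBD2 and 6.16 for its own knockdown. It stood at the 95.3 percentile in siNC and 39.3 in siMBD3, while its pileup was 22.3 and 32.1 times the lowest background of those lists.

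**Figure D4:**
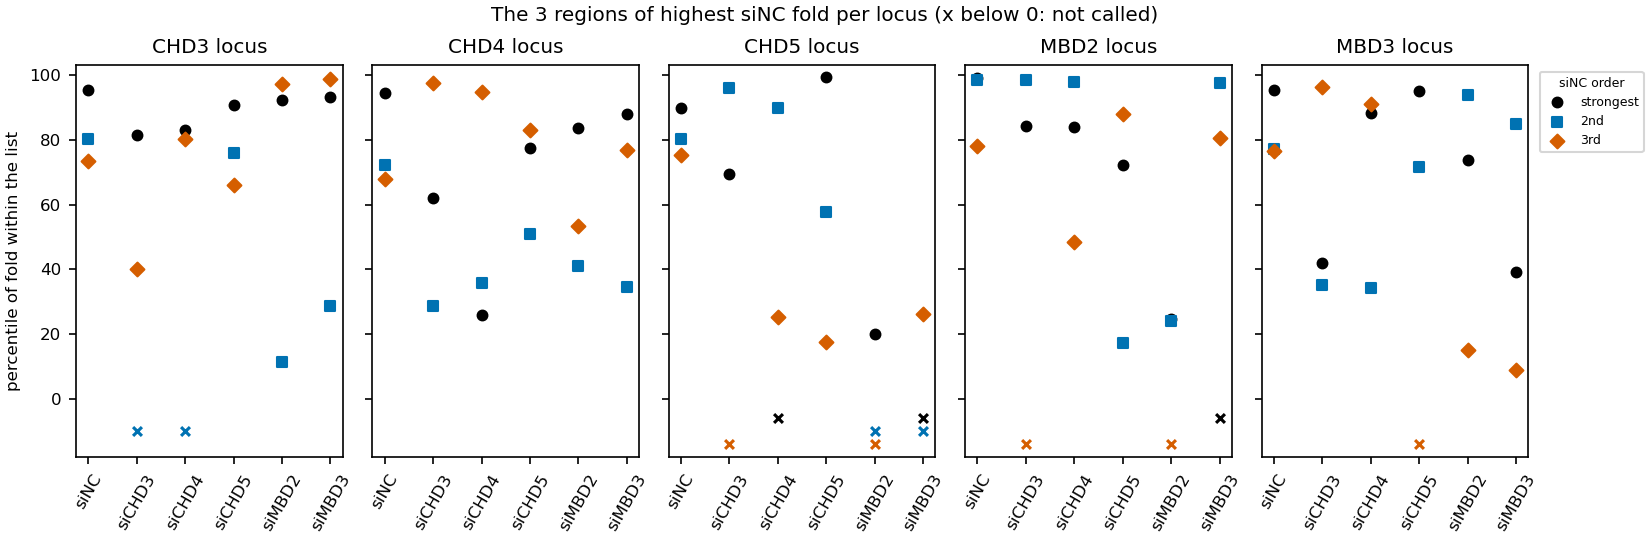
Percentile of fold within each list for the 3 regions of highest siNC fold per locus; crosses below 0 mark lists without a call. The CHD3 region strongest in siNC stays above 80 in all 6 lists, while both leading MBD2 regions lie near 24 in siMBD2. Each percentile ranks fold, which depends on local background as well as pileup.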

How the data were processed

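Per the labels' protocols, libraries of CTCF immunoprecipitates and inputs, 3 of each in 6 conditions, were read from both ends. Per the submitters' processing notes, the build was hg19 and the tools were MACS2 2.1.2, Bowtie2 2.3.4, FastQC 0.11.7, deepTools 3.5.0, SAMtools 1.9 and bedtools 2.25.0, with roles, settings and read filters not given in the sources used here. All 6 deposited lists, each naming 3 replicates called together, have the narrow-peak layout. Their columns were read as the authors' fold enrichment at the summit (a ratio), the deposited −log10 p and −log10 q, the summit offset and the deposited display score, which was not used. Depth was taken from the lists themselves, since totals of single samples were not used here. Each peak's pileup and background follow from the authors' fold and p when p is a Poisson upper tail, and for 100% of peaks an integer pileup gave the deposited p to within 0.01%.

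Lines sharing a start and end were counted once. Only the 23 chromosomes 1 to 22 and X were used, coordinates are hg19 and counted from 1, and an overlap of 1 bp made peaks shared. Peaks of any list that overlapped or touched were joined into merged regions. Percentiles are a peak's rank by fold, counted from the lowest, as a percentage of its list's peaks, with tied folds given their mean rank. Shares have exact Clopper-Pearson 95% intervals, and no p-value was computed. Regions were named by a rule: in each locus the 3 of highest siNC fold, every one in the middle of a window, the siNC peaks missing in the gene's own knockdown, the 3 strongest added there, and those called in siNC alone or in all 5 knockdowns without siNC. The regions starting at 6283937 and 6679361 fell outside the rule and were named after their values were seen. Members, lists and rules were chosen with earlier results of these data known. Alternatives were a −log10 q of at least 10, reciprocal overlap of 50%, a distance of 1 kb, lists of equal length (25358 peaks), scaling to the depth of the knockdown, joining within 500 bp and windows less 100 kb at each end. Counts and pileups were tested on simulated data. Python 3.11.15, numpy 2.4.6, scipy 1.17.1 and pandas 2.3.3 were used. Genes and sequence at the peaks were not analysed here.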

Additional observations from a re-analysis of the deposited data

How the results depend on the processing

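All values are percentages of the peaks in the 5 windows unless a locus is named. Reciprocal overlap of 50%, partners within 1 kb, joining within 500 bp and windows less 100 kb at each end left every share within its main interval, as did leaving out the CHD4 window, an alternative chosen after seeing the data. When both lists were limited to a −log10 q of 10 or more, missing shares were 58.2% in siCHD3, 61.8% in siCHD4, 50.9% in siMBD2 and 61.8% in siMBD3, with 60% in the CHD4 locus in siCHD4, 100% (4 of 4) in the MBD2 locus in siMBD2 and 85.7% in the MBD3 locus in siMBD3. Over the whole lists the missing shares were close to those of the windows, at 59.1%, 59.4%, 50.7% and 61.2% in the same order of knockdowns. The intervals of the 3 loci named held these shares. Added shares under that rule were 25.8% in siCHD3, 8.70% in siCHD4, 3.57% in siMBD2 and 0% in siMBD3, against 18.3%, 7.24%, 2.48% and 2.77% over the whole lists. With that limit on the searched-for peaks only, missing shares were 18.2% for siCHD5, 23.6% for siMBD2, 20% for siMBD3 and 0% in the MBD3 locus in siMBD3, and added shares 16.1% in siCHD3, 0% in siCHD4, 3.57% in siMBD2 and 0% in siMBD3. Over the whole lists these missing shares were 9.38% for siCHD5, 23.1% for siMBD2 and 28.3% for siMBD3. The added ones were 8.92% in siCHD3, 2.22% in siCHD4, 1.16% in siMBD2 and 1.39% in siMBD3. With lists of equal length, which shortens siNC most, missing shares were 13.5% in siCHD3 and siMBD2, 24.3% in siCHD4 and 8.11% in siCHD5, with 7.14% in the CHD3 locus in siCHD3 and 0% in the CHD5 and MBD3 loci in their own knockdowns. Added shares were then 47.2% for siCHD4, 20.9% for siCHD5, 33.3% for siMBD2 and 40.8% for siMBD3. Over those whole lists, missing shares were 30.3% in siCHD3, 30.5% in siCHD4, 13.2% in siCHD5 and 19.2% in siMBD2, and added shares 30.5% for siCHD4, 13.2% for siCHD5, 18.9% for siMBD2 and 23.9% for siMBD3, so the intervals of siCHD4, siMBD2 and siMBD3 (added), with that of siCHD3 at 44.8% against 30.5%, came to lie above the whole-list share and that of siCHD3 (missing) below it. The limit kept 37 of the 69 siNC peaks in the windows, against 25358 of 36270 over the whole siNC list. Counting only siNC peaks that would pass at the knockdown's depth gave missing shares of 12.8% in siCHD3, 23.6% in siMBD2 and 20.6% in siMBD3, 7.14% in the CHD3 locus in siCHD3 and 0% (0 of 2) in the MBD3 locus in siMBD3. Over the whole list that rule gave 25.5% in siCHD3, 23.3% in siMBD2 and 20.2% in siMBD3. For siCHD5 that rule left the missing share at 31.9% (21.2 to 44.2%), above the 20.1% over the whole list. Regions in all 6 lists fell to 12.5% (8 of 64) with a −log10 q of at least 10 in every list. Each rule changes which peaks are counted, and what lies behind these shifts was not tested. No paired analysis was possible because each deposited list pools its 3 replicates, and for the same reason no replicate could be left out. Depth limits what a missing call shows: siNC had 7.92 times the background of siMBD3 and 6.66 times that of siCHD3.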
